A study of Mus musculus with 6 samples.

Results

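The miR-17-92 and miR-106b-25 cluster miRNAs were taken as every listed mature miRNA whose name gives a hairpin of either cluster, which are miR-17, miR-18a, miR-19a, miR-19b, miR-20a, miR-92a, miR-106b, miR-93 and miR-25. Names such as mmu-miR-17-5p, mmu-miR-17-3p and mmu-miR-20a-5p are written below without the species prefix, and no strand of miR-18a was analysed here. The rule found 12 of the 392 listed miRNAs, 6 from each cluster. The tissue was skeletal muscle. The mice were male, of genotype C57BL6, 16 weeks old and fed normal chow, with 3 libraries after a sham operation (Sham, labelled as control) and 3 after transverse aortic constriction (TAC), which narrows the aorta, overloads the heart and leads to heart failure. The labels give 8 weeks of treatment, and 8 to 10 weeks after surgery in the protocol. They name neither the muscle nor whether each library is 1 animal, so p-values measure the spread between these libraries. The series title asks how a muscle miRNA contributes to insulin resistance in heart failure.

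Both clusters are polycistrons, in which 1 primary transcript is cut into several hairpins and each hairpin yields a 5p and a 3p strand. The first is transcribed as its own noncoding gene, is activated by MYC and E2F factors, and is known for promoting proliferation and survival through targets such as the pro-apoptotic Bcl2l11 and the cell cycle inhibitor Cdkn1a. The second lies within Mcm7, which encodes a subunit of the replicative helicase, and is linked to E2F in the same way. Members of both are abundant in blood and endothelial cells as well as in dividing cells, and miR-92a restrains vessel growth.

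In GRCm38, the 6 hairpins of miR-17-92 span 836 bases of chromosome 14, from 115043671 to 115044506 on the plus strand, and all 6 overlap an exon of the long noncoding RNA Mir17hg. The 3 hairpins of miR-106b-25 span 498 bases of chromosome 5, from 138165321 to 138165818 on the minus strand. Mir106b overlaps no exon of the 10 annotated Mcm7 transcripts, and Mir93 and Mir25 each overlap an exon of 1 of them. Copies of miR-19b-3p and miR-92a-3p with the same sequence are also made from a paralogous cluster on chromosome X, so counts of these 2 miRNAs cannot be assigned to 1 locus. Host transcripts and textbook targets were not analysed here.

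The 12 mature sequences from RefSeq (GRCm38.p6) are shown because the members are best read by seed, bases 2 to 8 in capitals, which selects the targets. The first 4 share AAAGUGC, the next 2 GUGCAAA and the next 2 AUUGCAC, while the last 4 strands have a seed of their own.
miR-17-5p: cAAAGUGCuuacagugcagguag
miR-20a-5p: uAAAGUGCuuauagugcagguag
miR-93-5p: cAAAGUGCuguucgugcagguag
miR-106b-5p: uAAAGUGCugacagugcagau
miR-19a-3p: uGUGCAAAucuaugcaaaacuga
miR-19b-3p: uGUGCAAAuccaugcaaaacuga
miR-92a-3p: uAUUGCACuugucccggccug
miR-25-3p: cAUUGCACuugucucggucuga
miR-17-3p: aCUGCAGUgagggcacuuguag
miR-106b-3p: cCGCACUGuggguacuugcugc
miR-93-3p: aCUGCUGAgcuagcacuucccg
miR-25-5p: aGGCGGAGacuugggcaauugc
Without gaps from the 5′ end, miR-19a-3p and miR-19b-3p differ at 1 of 23 bases, miR-17-5p and miR-20a-5p at 2 of 23, and miR-25-3p and miR-92a-3p at 3 of 21. The counting rule for reads that fit several members is not given in the sources used here, so values of such near-copies are uncertain.

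Libraries held 1179365 to 3440232 miRNA molecules, counted by unique molecular identifier (UMI). Sham 3 was the smallest, and the libraries numbered 3 stood apart from the others in both groups, which is described with the members below. Levels are given as CPM, UMIs per 1000000 miRNA UMIs after TMM scaling, and since ligation efficiency depends on sequence, comparisons of 1 miRNA between libraries are safer than comparisons between miRNAs. In bulk tissue, fewer cells of a type and less RNA per cell cannot be told apart.

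No member passed the test for a difference between TAC and Sham. Of the 12, 9 passed the filter on low counts and 0 reached an adjusted p under 0.05 by edgeR's quasi-likelihood test, where 22.0% of all 322 tested miRNAs did. None of the 9 had an unadjusted p under 0.05, against 33.2% of all tested, and DESeq2 called 0 as well. The replicate block pairs same-numbered libraries, a pairing that is uncertain. With it, 0 of 9 members passed against 34.5% of all tested, and 2 of 9 (miR-17-5p and miR-93-5p) had an unadjusted p under 0.05 against 46.9%. Of the log2 fold changes 6 were above 0 and 3 below, from -0.47 to 0.88, with a median of 0.04 that equals the 0.04 of all tested miRNAs. The adjusted p-values ran from 0.199 to 0.966. Without both libraries numbered 3, which leaves 2 libraries a group, miR-17-5p and miR-19b-3p passed, beside 38.3% of 337 tested miRNAs.

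Summed over its 6 members, miR-17-92 had 1314, 1169 and 2019 CPM in Sham 1, 2 and 3 and 1259, 1316 and 2085 CPM in TAC 1, 2 and 3. The miR-106b-25 sum was 2993, 2695 and 3056 CPM in Sham and 2647, 2908 and 3641 CPM in TAC. The groups overlapped for both sums, and in each group the library numbered 3 was the highest. Most of the miR-17-92 sum was miR-92a-3p, whose counts cannot be assigned to 1 locus. It made up 83.6%, 80.2% and 97.1% of the sum in Sham 1, 2 and 3 and 83.8%, 84.1% and 93.9% in TAC. The sum therefore mainly follows this strand, whereas miR-20a-5p and miR-19b-3p were lowest in library 3 of each group. All 12 members together made up between 0.348% (TAC 1) and 0.612% (Sham 3) of the miRNA UMIs in a library.

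**Figure D1:**
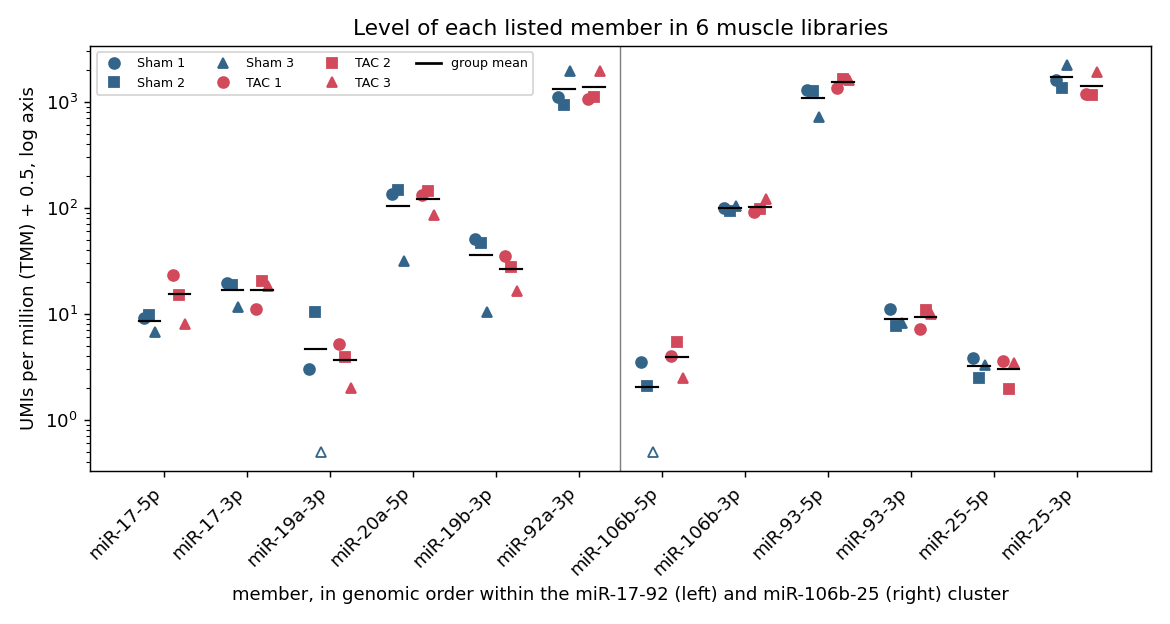
Level of each listed member on a log axis in CPM plus 0.5, in genomic order within each cluster. Points are libraries, bars are group means of 3 libraries and open symbols mark 0 UMIs. Sham 3 lies far below Sham 1 and 2 for miR-20a-5p and miR-19b-3p and above them for miR-92a-3p and miR-25-3p, and miR-93-5p is the member whose groups do not overlap.

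Among the strands with the seed AAAGUGC, miR-93-5p made up most of the counts and had the clearest separation of the groups. It had 1281, 1253 and 727 CPM in Sham 1, 2 and 3 and 1363, 1626 and 1600 CPM in TAC 1, 2 and 3. Every TAC library lay above every Sham library. It was the 1 member of 9 whose groups did not overlap, where 40.4% of all tested miRNAs had groups that did not. The mean was 1087 ± 312 CPM for Sham but 1529.9 ± 145.2 for TAC (SD, n = 3). The log2 fold change of 0.49 (SE 0.26, 95% interval -0.11 to 1.10) did not pass (edgeR adjusted p = 0.216). Sham 3 was the lowest library, and the log2 fold change was 0.33 without Sham 3 and 0.23 without both libraries numbered 3. With the replicate block, the unadjusted p was 0.0483 and the adjusted p 0.104 by edgeR.

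The 5p strand of miR-17, a founding member of the family, had the largest log2 fold change of the 9 tested members and the fewest counts of the tested strands with this seed. Sham 1, 2 and 3 held 31, 23 and 9 UMIs of it, and TAC 1, 2 and 3 held 58, 30 and 15. Scaled to CPM, the Sham libraries had 8.61, 9.18 and 6.32 and the TAC libraries 22.6, 14.7 and 7.45, so TAC 3 fell within the Sham range and the other TAC libraries above it. The log2 fold change was 0.88 (SE 0.43, 95% interval -0.12 to 1.87, edgeR adjusted p = 0.199). Without both libraries numbered 3 it was 1.08 (SE 0.31) and passed (edgeR adjusted p = 0.0348). With all 6 libraries and the replicate block the unadjusted p was 0.0309 and the adjusted p 0.0742 by edgeR. Without TAC 1, the library with the most UMIs of miR-17-5p, the log2 fold change was 0.45 (edgeR adjusted p = 0.536). The sequence of miR-17-5p is 1 base from that of miR-106a-5p of the chromosome X cluster (A10U, with the base of miR-106a-5p first and positions counted from the 5′ end).

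The miR-20a-5p strand was the second most abundant of the miR-17-92 cluster. It had 134, 148 and 30.9 CPM in Sham 1, 2 and 3 and 131, 143.8 and 85.4 CPM in TAC 1, 2 and 3. Libraries 1 and 2 of both groups lay close together and library 3 was the lowest in each group, most so in Sham. The log2 fold change was 0.20 (SE 0.53, 95% interval -1.04 to 1.43, edgeR adjusted p = 0.807), and -0.04 (SE 0.16) without both libraries numbered 3. The remaining strand of this seed, miR-106b-5p, was not tested, with 11, 4 and 0 UMIs in the Sham libraries against 9, 10 and 4 after TAC. The 0 in Sham 3 allows up to 2.54 UMIs per 1000000 miRNA UMIs, from a limit of 3 UMIs.

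Both miR-19 strands, which carry the seed GUGCAAA, had low counts. For miR-19b-3p the levels were 50.3, 46.3 and 9.84 CPM in Sham 1, 2 and 3 and 34.7, 27.4 and 15.9 CPM in TAC 1, 2 and 3. TAC 1 and 2 lay below Sham 1 and 2, but Sham 3 was the lowest of all. The log2 fold change of miR-19b-3p was -0.47 (SE 0.57, 95% interval -1.79 to 0.85), and it did not pass (edgeR adjusted p = 0.579). It was -0.83 without Sham 3 and -0.075 without Sham 1, and passed in neither. Without both libraries numbered 3 it was -0.64 (SE 0.20) and passed narrowly (edgeR adjusted p = 0.0481). Its near-copy miR-19a-3p had 9, 25 and 0 UMIs in the Sham libraries against 12, 7 and 3 after TAC and was not tested with all 6 libraries.

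The seed AUUGCAC is carried by miR-25-3p and miR-92a-3p, which rank 47 and 51 by mean level among the 392 miRNAs, next to miR-93-5p at 52. For miR-92a-3p, which limits angiogenesis, the levels were 1099, 938 and 1961 CPM in Sham 1, 2 and 3 and 1055, 1106 and 1957 CPM in TAC 1, 2 and 3. Libraries of the same number were close between the groups, and library 3 was the highest in each. The log2 fold change was 0.04 (SE 0.36, 95% interval -0.80 to 0.89, edgeR adjusted p = 0.94).

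For miR-25-3p, a regulator of calcium handling in heart muscle, the levels were 1594, 1339 and 2214 CPM in Sham 1, 2 and 3 and 1180, 1168 and 1906 CPM in TAC 1, 2 and 3. Each TAC library was below the Sham library of the same number, while the groups overlapped. The log2 fold change was -0.27 (SE 0.29, 95% interval -0.94 to 0.39, edgeR adjusted p = 0.513).

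**Figure D2:**
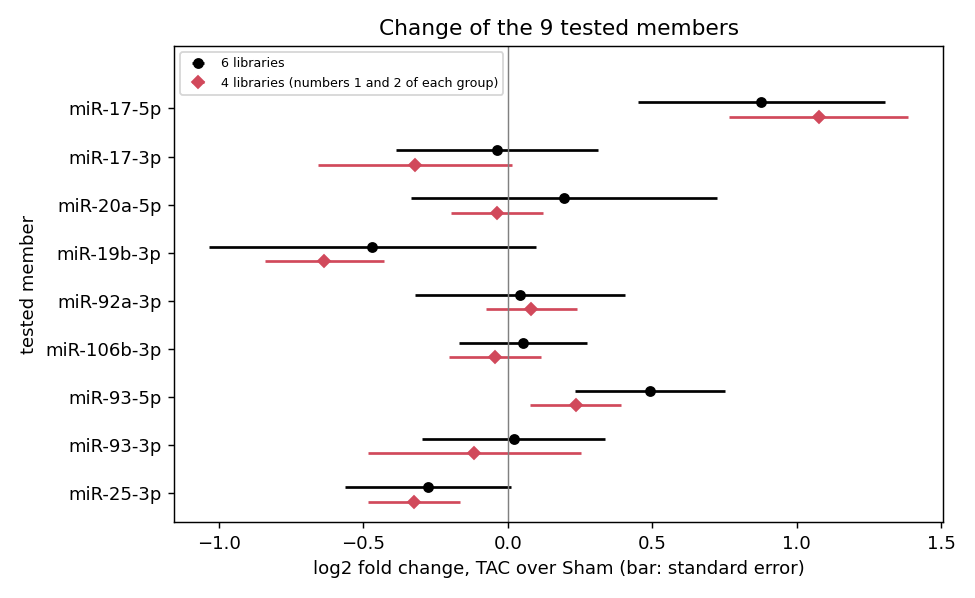
Log2 fold change of TAC over Sham for the 9 tested members, with bars for 1 standard error. Black circles use all 6 libraries and red diamonds the 4 libraries numbered 1 and 2. With all 6 libraries, the largest values are 0.88 for miR-17-5p and 0.49 for miR-93-5p. Without the libraries numbered 3 the bars are shorter for every member but 93-3p, most so for 20a-5p, 19b-3p and 92a-3p.

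The 4 strands with a seed of their own include miR-106b-3p, whose levels varied little. It had 100.3, 92.2 and 104 CPM in Sham 1, 2 and 3 and 90.5, 96.8 and 120 CPM in TAC 1, 2 and 3. The groups overlapped, with a log2 fold change of 0.05 (SE 0.22, 95% interval -0.47 to 0.57, edgeR adjusted p = 0.882). The log2 fold changes of miR-17-3p (16.3 CPM in Sham, 16.2 in TAC) and miR-93-3p (8.49 and 8.78 CPM) were -0.04 and 0.02. The least abundant of these 4, miR-25-5p, had 3 to 12 UMIs a library and was not tested.

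Which strand of a hairpin was counted more differed between hairpins, and this ratio within a library does not depend on scaling. The 3p strand made up 99.8% of miR-25 and 98.4% ± 1.48 of miR-106b in Sham, but 0.813% ± 0.241 of miR-93 (SD, n = 3). For miR-17, neither strand made up nearly all of the counts. Its 3p share was 69.0%, 66.7% and 64.0% in Sham 1, 2 and 3, against 31.8%, 57.7% and 70.6% in TAC 1, 2 and 3. TAC 1 was the lowest, with a Wilson 95% interval from 22.8% to 42.3% on 85 UMIs, below the interval of Sham 1 (59.4% to 77.2% on 100 UMIs). TAC 3 had the highest share of all 6 libraries, so the groups overlapped. The mean difference of -13.2 percentage points had an exact two-sided permutation p of 0.4, adjusted to 0.533 over 4 hairpins, where 3 against 3 libraries cannot go below 0.1. The differences for the other 3 hairpins ran from -1.84 to -0.02 percentage points, with exact permutation p-values from 0.3 to 0.7, and their groups overlapped as well.

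Members named for 1 cluster did not keep a fixed ratio to each other across libraries, though miR-92a-3p counts may also come from chromosome X. For each 100 UMIs of miR-92a-3p there were 12.2, 15.7 and 1.58 UMIs of miR-20a-5p in Sham 1, 2 and 3, against 12.5, 12.997 and 4.37 in TAC 1, 2 and 3. The mean ratio of Sham 1 and 2 was 8.87 times that of Sham 3, and that of TAC 1 and 2 was 2.92 times that of TAC 3. Within the other cluster, there were 80.4, 93.5 and 32.8 UMIs of miR-93-5p for each 100 of miR-25-3p in Sham, against 115.5, 139 and 84.0 after TAC. Library 3 was the lowest of its group in both ratios. The groups overlapped in both, but miR-93-5p for each 100 of miR-25-3p was higher in each of the 3 TAC libraries than in the Sham library of the same number, a difference that was not tested.

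By contrast, miR-19b-3p against miR-20a-5p stayed within 37.4, 31.4 and 31.8 UMIs for each 100 in Sham. In TAC these values were 26.4, 19.05 and 18.6, all below the Sham values. This ratio was chosen after its values were seen and was not tested.

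The members differed in how far the libraries numbered 3 departed from the others, and their base composition is given beside this. On log2(CPM + 1), Sham 3 minus the mean of Sham 1 and 2 was -2.18 for miR-19b-3p and -2.15 for miR-20a-5p, which have 39.1% G and C in the mature sequence. It was 0.95 for miR-92a-3p, with 57.1% G and C, and 0.60 for miR-25-3p, with 50%. In TAC the same differences were -0.91, -0.68, 0.86 and 0.70, with the same signs as in Sham. Base composition did not order all members, since miR-93-5p (52.2% G and C) and miR-17-3p (54.5%) were at -0.80 and -0.69 in Sham and at 0.10 and 0.28 in TAC. The lowest member in TAC was miR-17-5p (47.8%) at -1.19, against -0.43 in Sham. The 2 remaining members, miR-106b-3p (63.6%) and miR-93-3p (59.1%), were at 0.11 and -0.16 in Sham and at 0.35 and 0.17 in TAC. Over the 9 tested members Spearman's rho between G and C content and this difference was 0.66 in Sham and 0.66 in TAC. Over the 281 of 322 tested miRNAs with a RefSeq sequence under the listed name, it was 0.37 in Sham and 0.44 in TAC. These are descriptions across miRNAs that share their libraries and depth, and the same sign was seen over all of them as over the members. What moved these libraries was not tested.

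**Figure D3:**
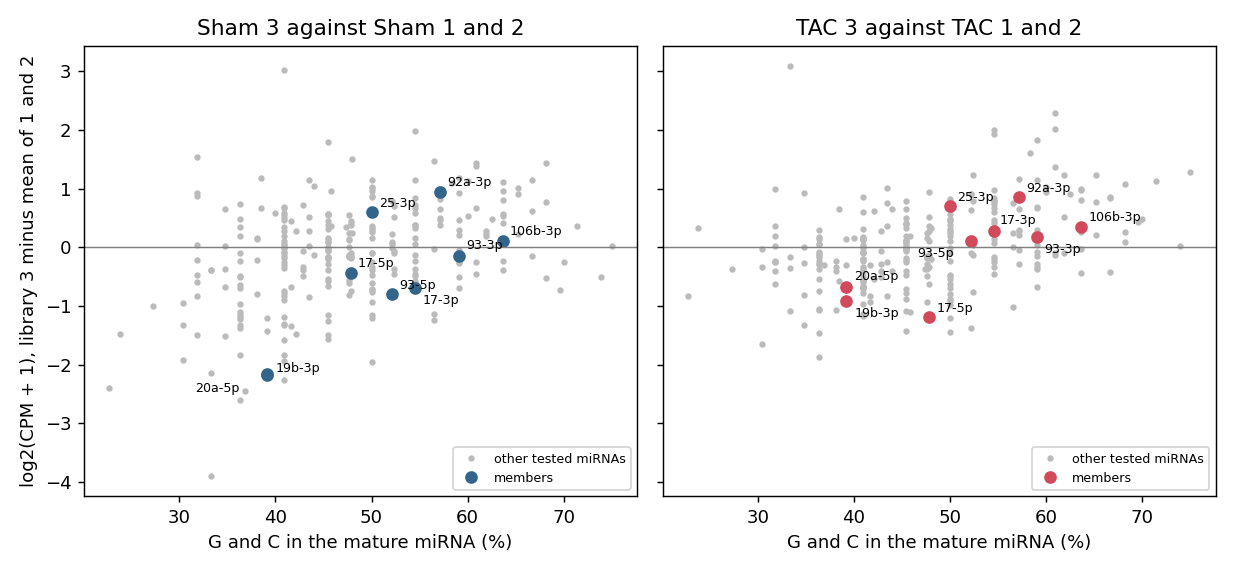
Difference in log2(CPM + 1) between library 3 and the mean of libraries 1 and 2, in Sham (left) and TAC (right), against the G and C content of the mature miRNA in percent. Coloured points are the 9 tested members and grey points the other tested miRNAs. Members 19b-3p and 20a-5p (39.1%) are low and 92a-3p (57.1%) is high in both groups.

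Levels of marker miRNAs of muscle fibres and of other cells are given for the same libraries. The 4 myofibre miRNAs summed to 419635 CPM in Sham 3, against 572928 and 578527 in the other Sham libraries and 631175 to 699874 in TAC. Nearly all of this sum was miR-1a-3p and miR-133a-3p, which with miR-133b-3p were lowest in Sham 3. The remaining one, miR-486a-5p, went the other way, with 1370 CPM in Sham 3 against 755 and 665 in Sham 1 and 2. The slow and regenerating muscle list, nearly all miR-206-3p, summed to 23101 CPM in Sham 3 and 4721 to 9588 in the other Sham libraries, and to 1170 to 3417 in TAC. Of its 3 miRNAs, 2 passed the threshold and were lower in TAC, where 22.0% of all tested miRNAs passed. The third, miR-499-5p, was also lower (log2 fold change -3.30, edgeR adjusted p = 0.0711), with 40.3 CPM in Sham 1 and 16.9 in Sham 3. The 3 erythroid miRNAs summed to 50.6 to 122.9 CPM in Sham and 75.0 to 167 in TAC, with library 3 lowest in both groups and 0 of 2 tested past the threshold. The 2 endothelial miRNAs summed to 26488 to 40858 CPM in Sham and 35438 to 37701 in TAC, 0 of 2 past it.

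Immune miRNAs, 0 of 9 past the threshold by edgeR, summed to 8207 to 12468 CPM in Sham and 13761 to 15652 in TAC, so these sums did not overlap. Except in Sham 3 (3475 of 8207 CPM), most of the sum was miR-21a-5p, which other cells also express. Without it the sums overlapped, at 4004 to 4732 CPM in Sham and 3893 to 4756 in TAC, and 6 of the 9 log2 fold changes were below 0. The 3 smooth muscle and pericyte miRNAs summed to 16852 to 23725 CPM in Sham and 20374 to 26999 in TAC. Epithelial miRNAs summed to 18.97 to 65.5 CPM in Sham and 1.49 to 7.02 in TAC, and 3 of 3 tested passed the threshold and were lower, beside 22.0% of all tested miRNAs past it. The liver miRNA miR-122-5p rose from 2.81 to 16.4 CPM in Sham to 72.5 to 1989 in TAC. The part of these cells in the members' values was not tested.

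The relatives outside both clusters were few. Of the chromosome X cluster, miR-20b-5p had 3 to 11 UMIs in a library and was not tested. Among other miRNAs with the seed AUUGCAC, miR-32-5p had 18.9, 19.2 and 16.2 CPM in Sham and 19.9, 13.2 and 16.4 CPM in TAC (log2 fold change -0.13, SE 0.27, edgeR adjusted p = 0.761). The other, miR-92b-3p, had 12, 6 and 18 UMIs in the Sham libraries against 4, 4 and 6 after TAC and was not tested. It is 2 bases from miR-92a-3p over 21 bases and, like it, was highest in library 3 of each group.

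A further readout came from mappable sequences that the deposited tables list without annotation, 4 of which start within the hairpins of both clusters. They are shown because 3 follow a member with 1 changed base (in capitals) and 1 is shifted with a new seed (in capitals). They are written in DNA letters, and that of miR-92a-3p also has a t past the 3′ end of the listed strand.
miR-92a-3p with C14A: tattgcacttgtcAcggcctgt
miR-25-3p with T10A: cattgcactAgtctcggtctga
miR-93-5p with T6A: caaagAgctgttcgtgcaggtag
miR-106b-3p, shifted: tACCGCACtgtgggtacttgct
Positions count from 1 at the 5′ end of the RefSeq strand, whose base comes first, and the change in miR-93-5p falls within its seed. The form with T6A had 35, 20 and 16 UMIs in the Sham libraries against 30, 30 and 30 after TAC. As a share of both forms it was 0.969% ± 0.483 in Sham and 0.889% ± 0.0358 in TAC (SD, n = 3). The forms of miR-92a-3p and miR-25-3p averaged 0.368% and 0.223% of both forms in Sham, against 0.34% and 0.278% after TAC. The groups overlapped for all 3 forms, and edgeR on the whole table of these sequences, where 0.161% of 1244 tested passed, called none of the 3 (unadjusted p from 0.53 to 0.643, with none called by the other fits either). The share of all these sequences that passed depended strongly on the fit, at 6.27% with the library sizes and factors of the miRNA table, 11.3% with the replicate block and 4.34% by DESeq2, which gave no adjusted p for the form of miR-25-3p.

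The shifted form starts 2 bases upstream of miR-106b-3p (chromosome 5, 138165748 to 138165769, minus strand), so its seed differs from that of the listed strand printed above. It had 8, 2 and 3 UMIs in Sham 1, 2 and 3, against 20, 9 and 8 in TAC 1, 2 and 3. As a share of both forms this was 2.17%, 0.858% and 1.99% for the Sham libraries against 7.94%, 4.35% and 3.21% after TAC. Every TAC share lay above every Sham share, with means of 1.67% ± 0.71 and 5.17% ± 2.47 (SD, n = 3). The exact two-sided permutation p was 0.1, the smallest possible, and 0.4 adjusted over the 4 forms. Exact binomial 95% intervals of TAC 2 (2.01% to 8.09%) and TAC 3 (1.40% to 6.23%) overlapped those of every Sham library. That of TAC 1 (4.92% to 11.99%) lay above those of Sham 1 and 2, which ended at 4.23% and 3.07%. It overlapped that of Sham 3 (0.412% to 5.70%). The form was removed by the low-count filter with all 6 libraries, and an unfiltered edgeR fit, added after seeing the data, gave 1.35 on the log2 scale (SE 0.54) with an adjusted p of 0.195, where 0.109% of 1832 sequences passed.

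**Figure D4:**
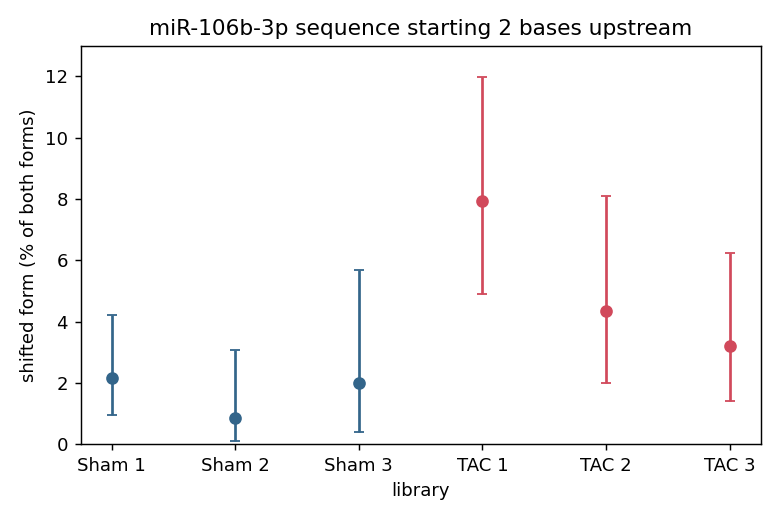
Share of the shifted form among UMIs of the shifted and the listed miR-106b-3p in each library, in percent, with exact binomial 95% intervals that cover counting error. Sham libraries lie at 0.858% to 2.17% and TAC libraries at 3.21% to 7.94%.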

How the data were processed

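The authors' deposited tables list, for every feature and library, 2 kinds of raw counts (UMIs and reads), per the file headers. Per the labels' protocols, libraries were made from 100 ng of total RNA with the QIAseq miRNA kit, which tags molecules before amplification. The submitters' processing notes name GRCm38. No source used here names an aligner or a counting rule. Reads per UMI were 1.04 to 1.12, so duplicates change little. Columns were matched to samples by the sample descriptions, with TAC columns numbered before Sham columns.

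UMI counts of all miRNAs were fitted with edgeR 4.0.16 in R 4.3.3 (TMM, filterByExpr with minimum count 10 and total 15, two-sided quasi-likelihood test, Benjamini-Hochberg over 322 miRNAs, threshold 0.05). SEs were the size of the log2 fold change divided by the root of F. The code was tested on simulated data. DESeq2 1.42.0 and limma-voom (limma 3.58.1) were alternatives, and permutation tests used scipy 1.17.1. Sequences came from RefSeq. Wilson and exact binomial intervals of shares, and floors, cover counting error only. Intervals of log2 fold changes were built from the edgeR SEs, so they also include the spread between libraries. Every member is named, non-members only from lists of relatives and cell markers. Members and lists were chosen with earlier results of these data known.

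Both groups carry numbers 1 to 3. Deviations from group means correlated across miRNAs with r = 0.33, 0.31 and 0.59 for same-numbered libraries, and the replicate block read the numbers as pairs. Deviations within a group sum to 0, so libraries numbered 3 that depart alike also raise the correlations among numbers 1 and 2. These correlations therefore cannot establish the pairs. The pairing is uncertain, since both crossed pairs of numbers 1 and 2 correlated more. Sham 1 had r = 0.344 with TAC 2 against 0.335 with TAC 1, and Sham 2 had r = 0.389 with TAC 1 against 0.310 with TAC 2. The correlations therefore do not single out same-numbered pairs for these libraries.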

Additional observations from a re-analysis of the deposited data

How the results depend on the processing

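No member passed under any of the other scalings, tools, filters, read counts or a threshold of 0.1, with any 1 library left out, or with the replicate block (0 members, though 111 of all miRNAs passed). Without both libraries numbered 3, 2 members and 129 miRNAs passed. With 1 library left out, all miRNAs past the threshold numbered 17 to 73, against 71 (17 without Sham 1, 29 without Sham 2, 32 without TAC 1 and 24 without TAC 2). Near 0, signs turned. With miRNA library sizes only and sizes over all classes, the log2 fold changes were -0.24 and -0.20 for miR-106b-3p, -0.036 and -0.0032 for miR-20a-5p, -0.28 and -0.25 for miR-92a-3p and -0.24 and -0.21 for miR-93-3p, where the median of all miRNAs moved from 0.04 to -0.24 and -0.21 and the calls from 20 higher and 51 lower to 10 and 68 in both. Without both libraries numbered 3 they were -0.045 for miR-106b-3p, -0.038 for miR-20a-5p and -0.12 for miR-93-3p. For miR-17-3p they were 0.061 with upper-quartile factors and 0.0041 without the filter, and limma-voom gave -0.0020 for miR-93-3p. Leaving out 1 library gave -0.83 to -0.075 for miR-19b-3p, -0.064 to 0.15 for miR-106b-3p, -0.19 to 0.21 for miR-17-3p, -0.17 to 0.51 for miR-20a-5p, -0.54 to 0.016 for miR-25-3p, -0.29 to 0.50 for miR-92a-3p and -0.10 to 0.26 for miR-93-3p. The cause was not tested. Over all alternatives miR-93-5p stayed above 0 (0.23 to 0.67), as did miR-17-5p (0.45 to 1.21). Of the 1244 sequences without annotation 2 passed, against 78 with the miRNA table's sizes and factors, 54 by DESeq2, 11.3% of them with the replicate block and 0 to 63 with 1 library left out (1383 to 1458 tested), none of them in the hairpins. The strand shares kept their direction with read counts, and miR-25 turned sign without 1 library (-0.049 to 0.021 points). Pairing same-numbered libraries cannot change the mean difference (-13.2 points for miR-17), so it does not test the direction. Of the 3 pairs, 2 went in the direction of the mean for miR-17, miR-93 and miR-25, and 3 did for miR-106b. Leaving out 1 library moved the miR-17 difference between -21.8 and -2.39 points. Depth limits miR-106b-5p, miR-19a-3p and miR-25-5p, with 38 to 56 UMIs in all libraries.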
